A study of Chromochloris zofingiensis with 6 samples.

Results

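The genes described here are the aminoacyl-tRNA synthetases, translation initiation factors and translation elongation factors of *Chromochloris zofingiensis*, a unicellular green alga. They were taken from the protein biosynthesis section of the study's list of protein metabolism genes, by annotation and with each identifier counted once. This gave 65 genes of the 15037 with a value in at least 1 library: 33 initiation factors, 14 elongation factors and 18 synthetases. All 65 were among the 13886 genes that were tested.

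The samples were poly-A RNA libraries of strain ATCC30412. Of these, 3 were from cells after 6 h in medium with 200 mM NaCl and 3 from cells at 0 h. The paper calls them biological triplicates at each time. Whether a 6 h and a 0 h library came from the same culture is not stated, and below each library is called a culture. Both times came from cultures in continuous light and air enriched in CO2, and the salt was given by collecting exponentially growing cells and resuspending them in fresh medium. No culture kept for 6 h without added salt was analysed here, so the effects of the salt, of the time and of the change of medium cannot be told apart. The unit is FPKM, the number of sequenced fragments divided by the length of the gene model and by the mapped fragments of its library, so that levels can be compared between genes. The values are relative to the library, so the amount of RNA per cell is not seen.

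Protein synthesis starts with synthetases, each of which joins 1 amino acid to its tRNAs. Initiation factors then bring the small ribosomal subunit, the initiator tRNA and the mRNA together at the start codon, and elongation factors deliver charged tRNAs and move the ribosome along the mRNA. A green alga translates in the cytosol, the plastid and the mitochondria, and the organelles use factors of bacterial type beside the eukaryotic factors of the cytosol.

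Most of the translation genes had higher values at 6 h, and the median fold change was largest for the initiation factors. A gene was called up-regulated or down-regulated at an adjusted p under 0.05 (limma, Benjamini-Hochberg adjustment over all genes tested) and a log2 fold change (6 h over 0 h) of 1 or more, or of -1 or less. By this rule 35 of the 65 genes (53.8%) were up-regulated, where 20.0% of all genes tested were, and 3 (4.62%) were down-regulated, where 26.6% of all genes tested were. The up-regulated genes were 23 of 33 initiation factors, 6 of 14 elongation factors and 6 of 18 synthetases, and the down-regulated genes were 1 of each class. The median log2 fold change was 1.12 over the 65 genes, 1.52 over the initiation factors, 0.88 over the elongation factors and 0.81 over the synthetases, against -0.04 over all genes tested. Of the 27 genes without a call, 12 were higher and 3 were lower at an adjusted p under 0.05 but by less than the fold limit, and 12 had an adjusted p over 0.05. Among all 13886 genes tested, 7422 had no call. Of these, 1893 were higher and 1004 lower in this way, and 4525 had an adjusted p over 0.05.

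**Figure D1:**
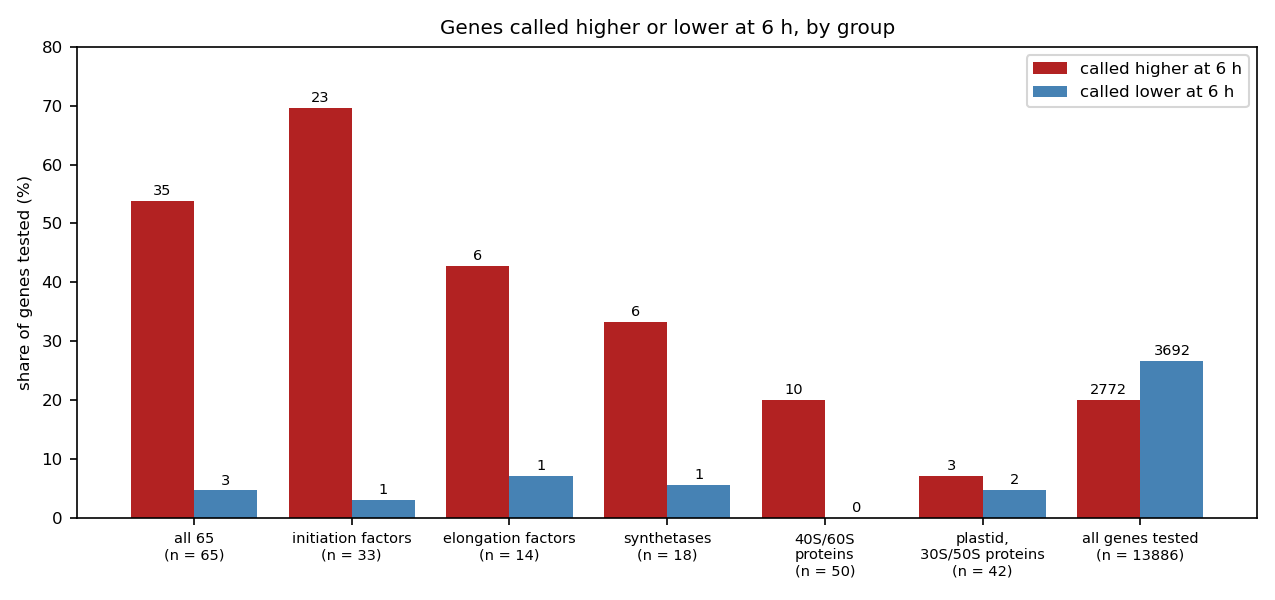
Share of the genes tested (%, vertical axis) called higher (red) or lower (blue) at 6 h against 0 h, for the translation genes, their classes, cytosolic and plastid ribosomal proteins and all genes, with the number of genes above each bar. The 35 of 65 translation genes called higher stand beside 2772 of 13886 genes tested, and 23 of the 35 are initiation factors.

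The direction was also visible without any model. On the deposited values, all 6 h cultures were above all 0 h cultures for 45 of the 65 genes, where this held for 27.2% of all genes tested, and below them for 10, where 46.1% of all genes were. The summed FPKM of the 65 genes were 12167, 11164 and 9847 in the 6 h cultures, against 6245, 6143 and 6309 in the 0 h cultures, a ratio of the means of 1.77. They took 1.07, 1.06 and 1.05% of each library's total FPKM at 6 h, against 0.675, 0.652 and 0.646% at 0 h. The groups did not overlap on either measure. For the initiation factors the share was 0.397, 0.407 and 0.396% at 6 h, against 0.192, 0.190 and 0.186% at 0 h, and for the synthetases it was 0.0688, 0.0749 and 0.0856% at 6 h, against 0.0652, 0.0603 and 0.0590% at 0 h. The median gene of the 65 stood at the percentile 82.9 of all genes tested at 6 h and at 62.6 at 0 h.

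The fold changes depend on how the libraries are put on a common scale. The median-of-ratios factors used here, 0.884, 0.914 and 0.910 at 6 h and 1.107, 1.114 and 1.134 at 0 h, moved the log2 fold changes up by a median of 0.31 against the deposited values. Of all calls, 42.9% were higher with this scaling, 30.1% without scaling, 25.5% with each library set to the same FPKM sum (TPM) and 30.3% with upper-quartile scaling. For the translation genes the number up-regulated was then 28, 27 and 28, and 27 of the 35 genes held their call under all 3 of these scalings: 19 of 23 initiation factors, 5 of 6 elongation factors and 3 of 6 synthetases. The number of synthetases up-regulated was thus 6 with the main scaling and 3 with each of the others. Genes that lost their call in this way are named with their class below.

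**Figure D2:**
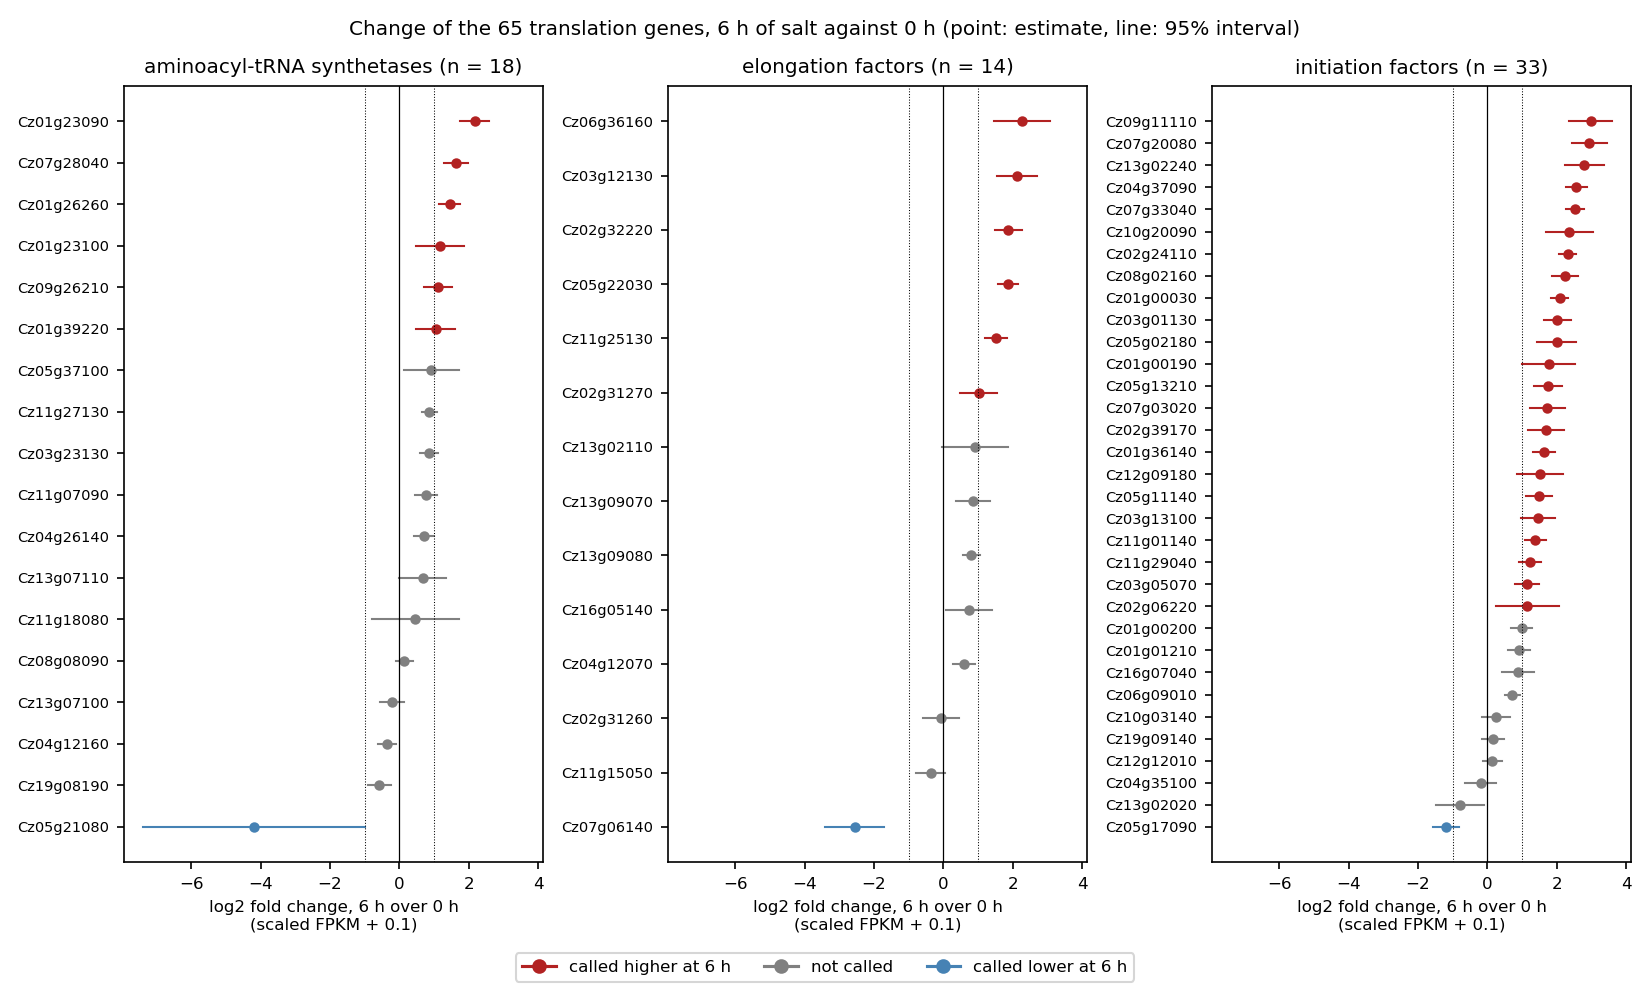
Log2 fold change of scaled FPKM + 0.1 (horizontal axis, 6 h over 0 h) of the 65 genes, by class and in order of size, with the 95% interval as a line and dotted lines at the fold limit of the call. Values reach 2.97 for an eIF3 subunit (Cz09g11110), and the widest interval is that of a tryptophanyl-tRNA synthetase (Cz05g21080) at -4.18.

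eIF3 is a large complex that binds the 40S subunit and holds the other factors and the mRNA during initiation. All 7 of its annotated subunits were up-regulated, where 20.0% of all genes tested were. Their log2 fold changes were between 1.69 and 2.97 with a median of 2.25, and all 7 held their call under every alternative tried in which the rule for a call stayed the same. Summed, the 7 genes had 1092, 1001 and 879 FPKM in the 6 h cultures, against 245, 254 and 253 FPKM in the 0 h cultures, a ratio of 3.95. The 6 h sums lay far above the 0 h sums, and the 0 h sums lay close together.

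Among the subunits, subunit 4 (Cz09g11110) had 315, 238 and 159 FPKM at 6 h and 33.0, 35.6 and 39.4 FPKM at 0 h, a log2 fold change of 2.97 ± 0.26 (SE, n = 3 each, adjusted p = 0.000148). This was the largest increase among the 65 genes, and its 6 h cultures differed among themselves far more than its 0 h cultures. The values by library of the next 3 subunits were chosen for display after they were seen. Subunit I (Cz07g33040) had 199, 206 and 226 FPKM at 6 h and 44.6, 48.7 and 42.3 FPKM at 0 h (log2 fold change 2.52 ± 0.11). Subunit E (Cz02g24110) had 79.4, 76.4 and 81.0 FPKM at 6 h and 19.9, 18.9 and 20.0 FPKM at 0 h (2.31 ± 0.10, adjusted p = 1.26e-05). The standard errors of these 2 genes were among the smallest of the list. eIF3c (Cz02g39170) had 65.2, 81.8 and 116 FPKM at 6 h and 33.1, 34.1 and 30.9 FPKM at 0 h (1.69 ± 0.21), so that its highest 6 h culture was the one in which subunit 4 was lowest. The other 3, eIF3 without a subunit name (Cz08g02160), eIF3a (Cz05g13210) and subunit 1 (Cz07g03020), changed by 2.25, 1.76 and 1.73 on the log2 scale.

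eIF2 is the GTP-binding complex that carries the initiator tRNA to the 40S subunit. Both of its annotated subunits were up-regulated, where 20.0% of all genes tested were. The gene of the alpha subunit (Cz10g20090), the subunit whose phosphorylation slows initiation in other eukaryotes, had 307, 260 and 148 FPKM at 6 h and 54.5, 53.0 and 56.7 FPKM at 0 h, a log2 fold change of 2.36 ± 0.28 (adjusted p = 0.000501). The gamma subunit (Cz03g01130), which binds GTP, had 158, 147 and 110 FPKM at 6 h and 38.4, 42.1 and 44.7 FPKM at 0 h, a log2 fold change of 2.02 ± 0.16 (adjusted p = 0.000112). Neither gene overlapped between the times, and both were higher in every 6 h culture, as 27.2% of all genes tested were. In both the third 6 h culture was the lowest of its group. Both were given by library after their values were seen.

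eIF2B exchanges the spent GDP of eIF2 for GTP, and 6 genes carry its name. The 5 annotated as its subunits all had log2 fold changes above 0. Of these, 3 were up-regulated, where 20.0% of all genes tested were, and 2 had no call. The remaining gene, annotated only as related to it, was down-regulated. Of a consecutively numbered pair of gamma subunit genes, Cz01g00190 had 137, 117 and 63.5 FPKM at 6 h and 29.9, 38.0 and 42.4 FPKM at 0 h (log2 fold change 1.77 ± 0.31, adjusted p = 0.00303). Its neighbour in number, Cz01g00200, had 30.3, 35.8 and 32.3 FPKM at 6 h and 19.4, 22.4 and 19.6 FPKM at 0 h (0.99 ± 0.12, adjusted p = 0.000644), just under the fold limit. The alpha subunit (Cz12g09180) changed by 1.52 and the delta subunit (Cz06g09010), which had no call, by 0.72 on the log2 scale. The call of the epsilon subunit (Cz02g06220) was the weakest among the up-regulated genes, with a log2 fold change of 1.15 ± 0.37 (adjusted p = 0.0339), 6 h and 0 h values that overlapped, and no call without scaling (0.84), with TPM (0.71) or with upper-quartile scaling (0.84). It was also lost when any single library other than the third at 6 h was left out, where its log2 fold change was between 0.79 and 1.20.

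The down-regulated initiation factor was Cz05g17090, annotated as related to initiation factor 2B. It had 25.8, 24.5 and 19.9 FPKM at 6 h and 57.8, 67.4 and 72.6 FPKM at 0 h, a log2 fold change of -1.19 ± 0.15 (adjusted p = 0.000747). All its 6 h values were below all its 0 h values. Proteins with this annotation include relatives of eIF2B subunits with other functions, and the annotation does not say which this is.

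The cap-binding protein eIF4E-1 (Cz01g00030), which holds the 5′ end of the mRNA, had 230, 234 and 204 FPKM at 6 h and 63.7, 62.5 and 68.2 FPKM at 0 h, a log2 fold change of 2.09 ± 0.10 (adjusted p = 1.89e-05). The iso-4F subunit p82-34 (Cz05g11140), part of a second cap-binding complex known from plants, changed by 1.49 and was also up-regulated. eIF6 (Cz04g37090), which keeps the 60S subunit from joining too early, had 161, 176 and 213 FPKM at 6 h and 36.31, 37.81 and 40.01 FPKM at 0 h, a log2 fold change of 2.56 ± 0.12 (adjusted p = 1.75e-05). The values of eIF4E-1 and eIF6 were both shown after they were seen. They did not overlap between the times and were higher at 6 h, as for 27.2% of all genes tested.

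The other initiation factors annotated as eukaryotic and with a number differed from each other. eIF5 (Cz11g01140), which triggers GTP hydrolysis by eIF2, was up-regulated by 1.39 on the log2 scale but without a call as TPM (0.95). eIF5A-1 (Cz03g05070), which helps ribosomes past sequences that stall them, had the highest 0 h level among the initiation factors, with 440, 485 and 606 FPKM at 6 h and 290, 279 and 279 FPKM at 0 h (log2 fold change 1.15 ± 0.14, adjusted p = 0.000627). Its groups did not overlap, but its call was lost without scaling (0.84), with TPM (0.71) and with upper-quartile scaling (0.84). eIF1A (Cz12g12010), which acts in scanning, and eIF5B (Cz04g35100), which acts in subunit joining, had no call, at 0.15 and -0.19 with 95% intervals from -0.13 to 0.43 and from -0.63 to 0.25.

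No number is given in the annotation of 7 of the 33 initiation factors, and 5 of these were up-regulated, where 20.0% of all genes tested were. The 2 largest increases among them were those of Cz07g20080, with 177, 155 and 105 FPKM at 6 h and 22.0, 22.7 and 24.2 FPKM at 0 h (log2 fold change 2.94 ± 0.21, adjusted p = 6.65e-05), and of Cz13g02240, with 139, 125 and 88.2 FPKM at 6 h and 18.9, 17.5 and 26.0 FPKM at 0 h (2.79 ± 0.23, adjusted p = 0.000118). Both were higher in every 6 h culture than in any 0 h culture, as 27.2% of all genes tested were. Of the other 3 up-regulated genes, Cz05g02180 averaged 263 FPKM at 6 h and 79.2 FPKM at 0 h, a ratio of 3.33, and Cz01g36140 and Cz03g13100 changed by 1.63 and 1.47 on the log2 scale. The changes of the 2 without a call, Cz01g01210 and Cz10g03140, were 0.92 and 0.26.

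IF-3, the bacterial-type factor that keeps the small subunit free, has 2 genes in the list. Cz11g29040 was up-regulated by 1.23 on the log2 scale, a call lost without scaling (0.92), with TPM (0.79) and with upper-quartile scaling (0.92), and Cz16g07040 had no call at 0.89. The 2 genes annotated as initiation factor 2 without a type had no call either. One of them, Cz13g02020, had 18.4, 24.1 and 40.3 FPKM at 6 h and 60.3, 57.0 and 49.5 FPKM at 0 h (log2 fold change -0.77 ± 0.28, adjusted p = 0.0499) and was down-regulated without scaling (-1.08), with TPM (-1.21) and with upper-quartile scaling (-1.08). The other, Cz19g09140, was at 0.16 and turned negative under these 3 scalings.

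**Figure D3:**
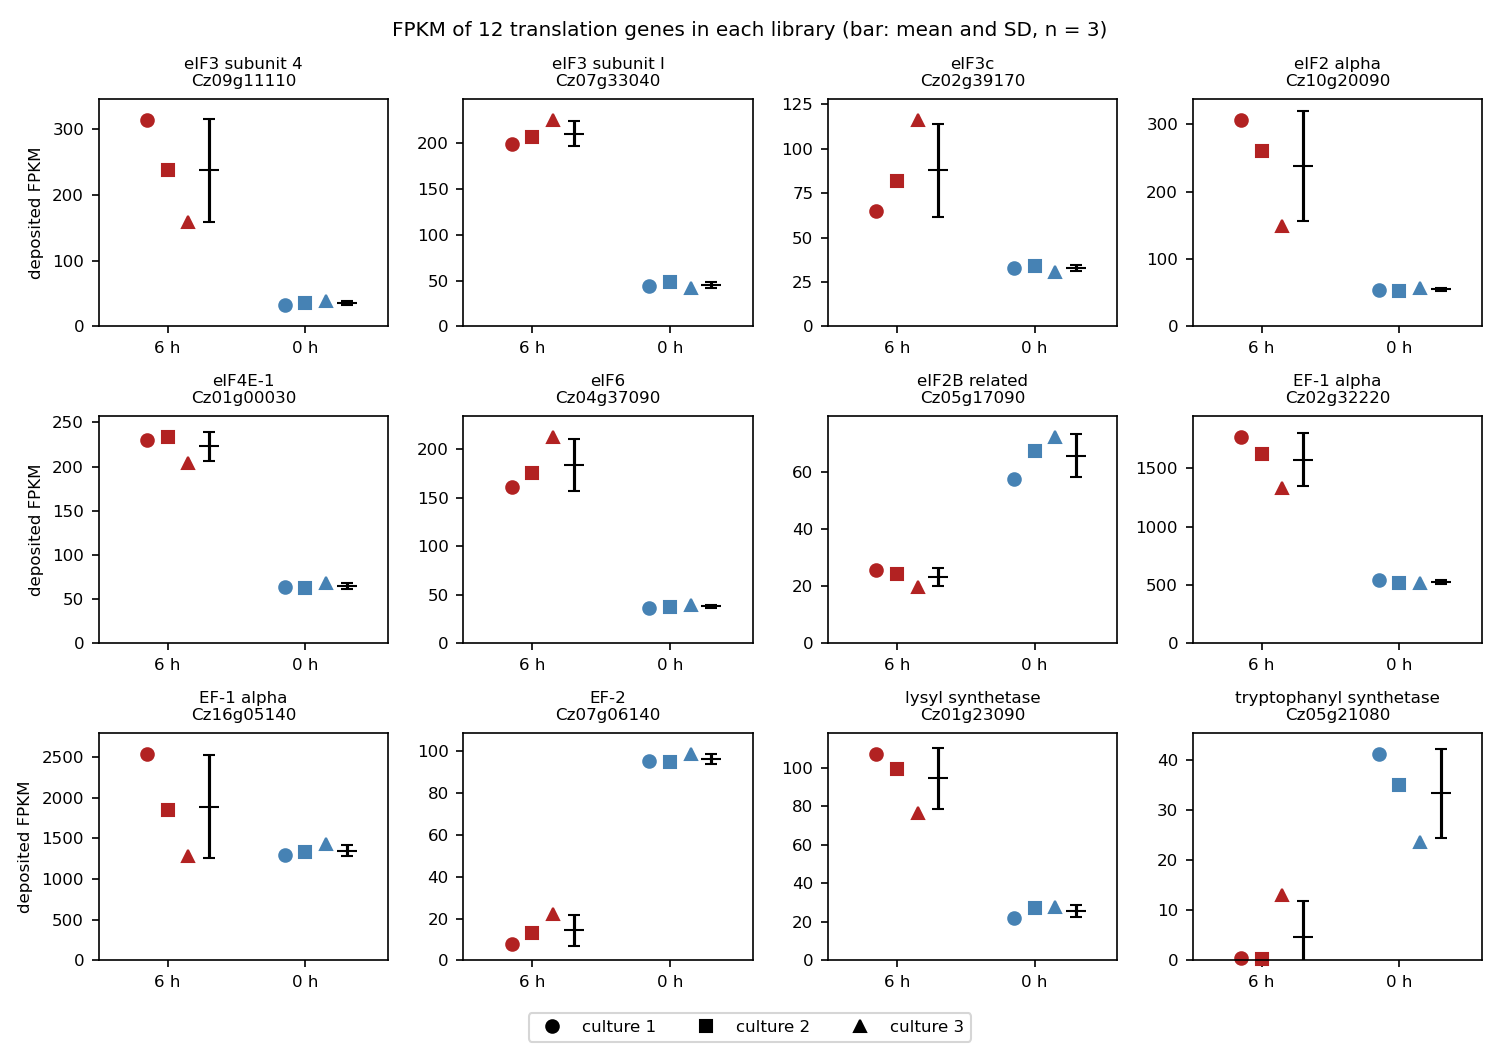
Deposited FPKM (vertical axes, each from 0) of 12 genes in the 3 cultures at 6 h (red) and the 3 at 0 h (blue), with the mean and SD as black bars. The eIF3, eIF2, eIF4E-1 and eIF6 genes are higher in every 6 h culture, the 3 down-regulated genes (Cz05g17090, Cz07g06140, Cz05g21080) are lower in every 6 h culture, and the 6 h points lie farther apart than the 0 h points in most panels.

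EF-1 alpha delivers charged tRNAs to the ribosome in the cytosol, and its 2 genes had the highest levels among the elongation factors at 6 h. The more abundant one, Cz16g05140, had 2543, 1845 and 1285 FPKM at 6 h and 1292, 1329 and 1429 FPKM at 0 h, and the groups overlapped (log2 fold change 0.74 ± 0.28, adjusted p = 0.0522). The other, Cz02g32220, had 1773, 1621 and 1331 FPKM at 6 h and 543, 522 and 517 FPKM at 0 h, with no overlap (1.88 ± 0.16, adjusted p = 0.000133). Cz02g32220 made up 41.1, 46.8 and 50.9% of the EF-1 alpha FPKM at 6 h, against 29.6, 28.2 and 26.6% at 0 h. Together the genes took 35.5, 31.1 and 26.6% of the FPKM of all 65 genes at 6 h and 29.4, 30.1 and 30.9% at 0 h, so the sum over the list leans on them. As copies of 1 factor they may share reads, and how such reads were assigned is not given in the sources used here.

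EF-2 moves the ribosome by a codon after each peptide bond, and its 4 genes differed in direction. Cz02g31270 had 1202, 1047 and 718 FPKM at 6 h and 578, 574 and 623 FPKM at 0 h and was up-regulated (log2 fold change 1.02 ± 0.22, adjusted p = 0.00681), but not without scaling (0.71), with TPM (0.58) or with upper-quartile scaling (0.71), nor without the first (0.85) or the second 6 h culture (0.97). Cz02g31260, the next lower number, had 307, 392 and 548 FPKM at 6 h and 547, 517 and 500 FPKM at 0 h and had no call (-0.06 ± 0.21). In these genes the order of the 6 h cultures was opposite. Cz07g06140 was down-regulated, with 7.77, 13.0 and 22.3 FPKM at 6 h and 95.4, 94.6 and 98.8 FPKM at 0 h (-2.56 ± 0.35, adjusted p = 0.00106), and held this call under every alternative tried. Cz04g12070, annotated as EF-2 and EF-TU, had no call at 0.60.

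EF-Ts recycles EF-Tu, the tRNA-delivering factor of bacteria and organelles, and its gene (Cz06g36160) had the largest increase among the elongation factors. It had 186, 158 and 84.9 FPKM at 6 h and 28.0, 33.3 and 44.9 FPKM at 0 h, a log2 fold change of 2.27 ± 0.33 (adjusted p = 0.00137). The groups did not overlap, although the third 6 h culture had less than the other two. The other bacterial-type elongation factors had no call. Chloroplast EF-G (Cz11g15050), which moves the plastid ribosome, had 149, 128 and 99.3 FPKM at 6 h and 201, 187 and 205 FPKM at 0 h (-0.37 ± 0.17, adjusted p = 0.101). The genes of EF-P, a bacterial relative of eIF5A, changed by 0.85 (organellar, Cz13g09070) and 0.81 (Cz13g09080). In all, 2 of the 6 factors of bacterial type by name (33.3%) were up-regulated, against 27 of the 41 other factors (65.9%) and 20.0% of all genes tested. Down-regulated were 0 against 2, where 26.6% of all genes tested were. The other factors include the 2 annotated as initiation factor 2 without a type, and Cz04g12070. The split is thus by name and not by compartment. The difference between these counts was not tested.

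EF-3 is an ATPase known from fungi, where elongation needs it. Its gene Cz03g12130 was up-regulated, with 49.7, 71.0 and 97.9 FPKM at 6 h and 19.7, 21.2 and 18.8 FPKM at 0 h (log2 fold change 2.12 ± 0.24, adjusted p = 0.000436). The other, Cz13g02110, had 260, 449 and 805 FPKM at 6 h and 344, 295 and 265 FPKM at 0 h (0.91 ± 0.39, adjusted p = 0.0814), and its first 6 h culture lay below all the 0 h cultures while the third was far above them. Values of Cz13g02110 by library were chosen after they were seen. In both genes the third 6 h culture was the highest. The 2 genes annotated only as elongation factor-like, Cz05g22030 and Cz11g25130, were up-regulated by 1.87 and 1.52.

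The 18 synthetase genes serve 13 of the 20 standard amino acids, 8 of them with 1 gene and 5 with 2. Their median level was lower than that of the factors, at 39.98 FPKM at 6 h and 33.4 FPKM at 0 h, against 103 and 41.7 FPKM for the initiation factors and 129 and 78.9 FPKM for the elongation factors, but the ranges overlapped. The largest increase was that of a lysyl-tRNA synthetase gene, Cz01g23090, with 107, 99.6 and 76.8 FPKM at 6 h and 22.2, 27.1 and 28.0 FPKM at 0 h (log2 fold change 2.18 ± 0.17, adjusted p = 9.94e-05). Both prolyl genes were up-regulated as well. Cz07g28040, annotated as prolyl-tRNA synthetase-like, had 17.6, 19.3 and 19.5 FPKM at 6 h and 6.42, 7.63 and 8.16 FPKM at 0 h (1.64 ± 0.14, adjusted p = 0.000148). Cz01g26260 had 61.4, 58.1 and 52.4 FPKM at 6 h and 27.8, 24.8 and 25.0 FPKM at 0 h (1.45 ± 0.12, adjusted p = 0.000123). None of these 3 genes overlapped between the times, and all were higher in every 6 h culture, as 27.2% of all genes tested were. They are the 3 synthetases that held their call under every scaling.

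The 3 other up-regulated synthetases were near the fold limit. The second lysyl gene (Cz01g23100) changed by 1.17, a tryptophanyl gene (Cz09g26210) by 1.12 and the methionyl gene (Cz01g39220), which charges the initiator tRNA as well, by 1.05 on the log2 scale. Without scaling they were at 0.86, 0.81 and 0.74, with TPM at 0.73, 0.68 and 0.61, and with upper-quartile scaling at 0.86, 0.81 and 0.74, in each case without a call. Without the third 6 h culture Cz01g23100 also lost its call (0.88), and without the first Cz01g39220 did (0.84). Another 5 of the 18 genes were higher at an adjusted p under 0.05 but under the limit, as were 1893 of the 13886 genes tested. They were those for threonine (Cz05g37100, 0.92), histidine (Cz11g27130, 0.87), the alpha chain for phenylalanine (Cz03g23130, 0.86), alanine (Cz11g07090, 0.77) and cysteine (Cz04g26140, 0.71).

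Log2 fold changes were below 0 for 4 of the 18 synthetases. They were the glutamyl gene, the aspartyl gene, an asparaginyl gene (Cz13g07100, -0.22) and a tryptophanyl gene (Cz05g21080, given below). The glutamyl gene (Cz19g08190), the most abundant synthetase at 0 h, had 38.3, 31.5 and 29.8 FPKM at 6 h and 59.70, 57.90 and 65.03 FPKM at 0 h, a log2 fold change of -0.57 ± 0.14 (adjusted p = 0.0107). Its groups did not overlap, and as TPM it was down-regulated (-1.01). The aspartyl gene (Cz04g12160) was at -0.36 (adjusted p = 0.0280), also under the limit.

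The tryptophanyl gene Cz05g21080 had the most negative log2 fold change of the 65 genes and the least certain one. It had 0.57, 0.26 and 13.1 FPKM at 6 h and 41.3, 35.0 and 23.8 FPKM at 0 h, a log2 fold change of -4.18 ± 1.32 with a 95% interval from -7.39 to -0.98 (adjusted p = 0.0301). All 6 h cultures were below all 0 h cultures, but the third 6 h culture was 50.2 times the second, the widest spread of any of the 65 genes at either time. The call was lost when any single library other than the third at 6 h was left out, at log2 fold changes from -4.42 to -3.16 (adjusted p from 0.0653 to 0.0899), and without the third 6 h culture the value was -5.77 (adjusted p = 2.07e-05). The other tryptophanyl gene, Cz09g26210, had 32.6, 31.3 and 23.3 FPKM at 6 h and 17.2, 16.1 and 15.7 FPKM at 0 h, and was the higher of the pair in every 6 h culture but the lower in every 0 h culture. Its values by library, and those of the leucyl gene that follows, were chosen after they were seen. The annotation does not say in which compartment either acts. The leucyl genes Cz11g18080 and Cz08g08090 had no call at 0.46 ± 0.52 and 0.15 ± 0.11, and the first of them had 11.6, 24.8 and 52.6 FPKM in the 6 h cultures, against 25.5, 22.0 and 19.8 FPKM in the 0 h cultures.

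The list holds 5 pairs of genes with the same annotated factor or amino acid and consecutive identifiers. In 4 of them the FPKM ratios of the first and second 6 h cultures lay on the same side of the 0 h range. The third 6 h culture lay nearest to the 0 h values. The ratio of the asparaginyl genes Cz13g07100 and Cz13g07110 was 0.276, 0.426 and 0.807 at 6 h, against 0.792, 0.919 and 0.839 at 0 h. That of the lysyl genes Cz01g23090 and Cz01g23100 was 3.54, 2.34 and 1.14 at 6 h, against 0.821, 1.14 and 1.24 at 0 h. That of the EF-2 genes Cz02g31260 and Cz02g31270 was 0.256, 0.374 and 0.763 at 6 h, against 0.947, 0.901 and 0.801 at 0 h. In each of these pairs the first and second 6 h cultures lay outside the 0 h range. The third lay within it for the asparaginyl and lysyl pairs and just below it for the EF-2 pair. The eIF2B gamma genes had ratios of 4.52, 3.28 and 1.97 at 6 h, against 1.54, 1.70 and 2.17 at 0 h, with the third 6 h culture alone inside the 0 h range. The EF-P genes had 0.700, 0.580 and 0.467 at 6 h and 0.549, 0.520 and 0.607 at 0 h. There the first 6 h culture lay above the 0 h range, the second within it and the third below it.

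Behind the asparaginyl ratio, Cz13g07100 had 20.9, 26.1 and 29.5 FPKM at 6 h and 36.2, 35.9 and 37.4 FPKM at 0 h, and Cz13g07110 had 76.0, 61.4 and 36.5 FPKM at 6 h and 45.7, 39.1 and 44.6 FPKM at 0 h. Neither had a call, at -0.22 and 0.67. Behind the lysyl ratio, Cz01g23100 had 30.3, 42.6 and 67.4 FPKM at 6 h and 27.0, 23.7 and 22.6 FPKM at 0 h, while Cz01g23090, given above, was highest in the first 6 h culture. The EF-P genes behaved more alike, with 65.1, 47.8 and 40.5 FPKM at 6 h and 34.8, 32.2 and 36.2 FPKM at 0 h for Cz13g09070 and with 93.0, 82.5 and 86.8 FPKM at 6 h and 63.4, 61.9 and 59.6 FPKM at 0 h for Cz13g09080. Genes with the same annotation can share reads, so the split of the signal within a pair is uncertain.

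**Figure D4:**
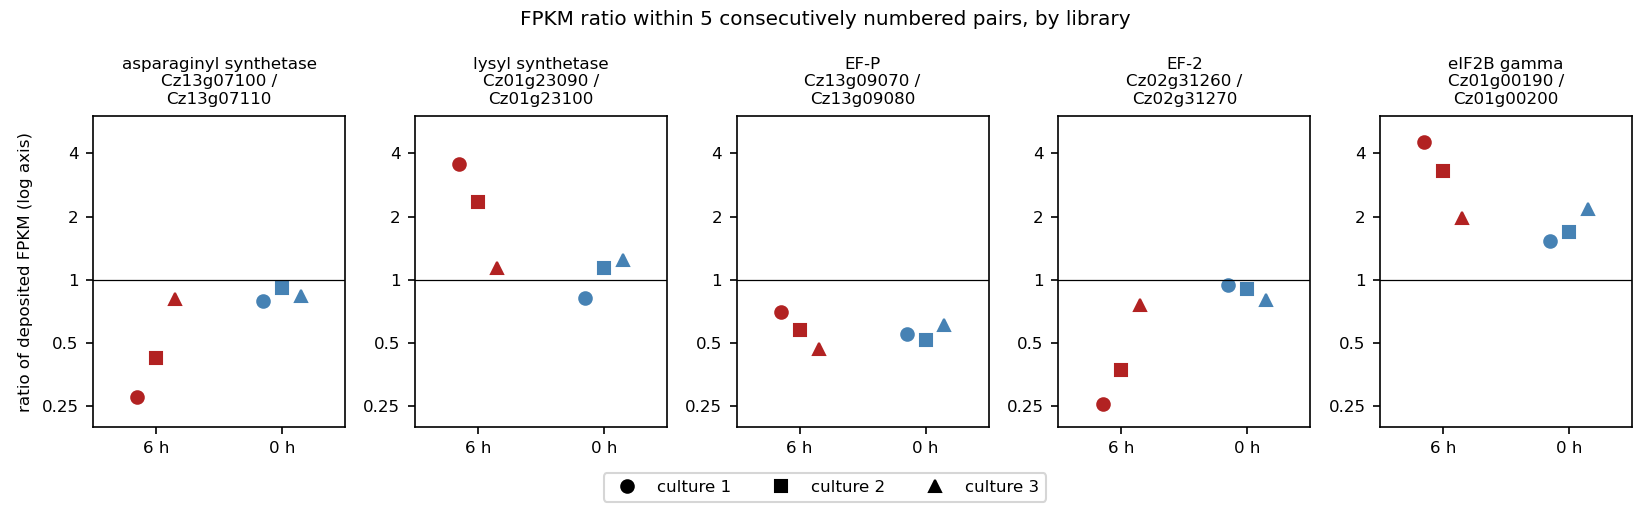
Ratio of deposited FPKM (vertical axis, log scale) within the 5 pairs of consecutively numbered genes in each culture at 6 h (red) and 0 h (blue), with a line at 1. For the asparaginyl, lysyl, EF-2 and eIF2B gamma pairs, the third 6 h culture (triangle) is the 6 h culture nearest to the 0 h points.

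The 6 h cultures were not alike over the list as a whole. The 65 genes varied more among the 6 h cultures than among the 0 h cultures, with a median ratio of the highest to the lowest value of 1.40 at 6 h and 1.12 at 0 h. The range was wider at 6 h for 57 genes, and it was over 2-fold for 12 genes at 6 h and for 0 at 0 h. The 13478 genes tested that had values in every library behaved likewise, with medians of 1.57 at 6 h and 1.15 at 0 h. Of these, 12124 had a wider range at 6 h, and the range was over 2-fold for 3960 at 6 h and for 191 at 0 h. After scaling, 43 of the 65 genes (66.2%) were highest in the first 6 h culture, 19 in the third and 3 in the second, where 45.0, 40.2 and 14.8% of all genes were, and 41 (63.1%) were lowest in the third, where 49.0% of all genes were. The median log2 difference from the 0 h mean was 1.84, 1.61 and 1.27 over the initiation factors in 6 h cultures 1, 2 and 3, 1.26, 0.82 and 0.80 over the elongation factors and 0.72, 0.81 and 0.77 over the synthetases. The median of each class was thus above its 0 h level in each 6 h culture, and it differed most between cultures for the initiation factors. What sets the 6 h cultures apart was not tested.

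**Figure D5:**
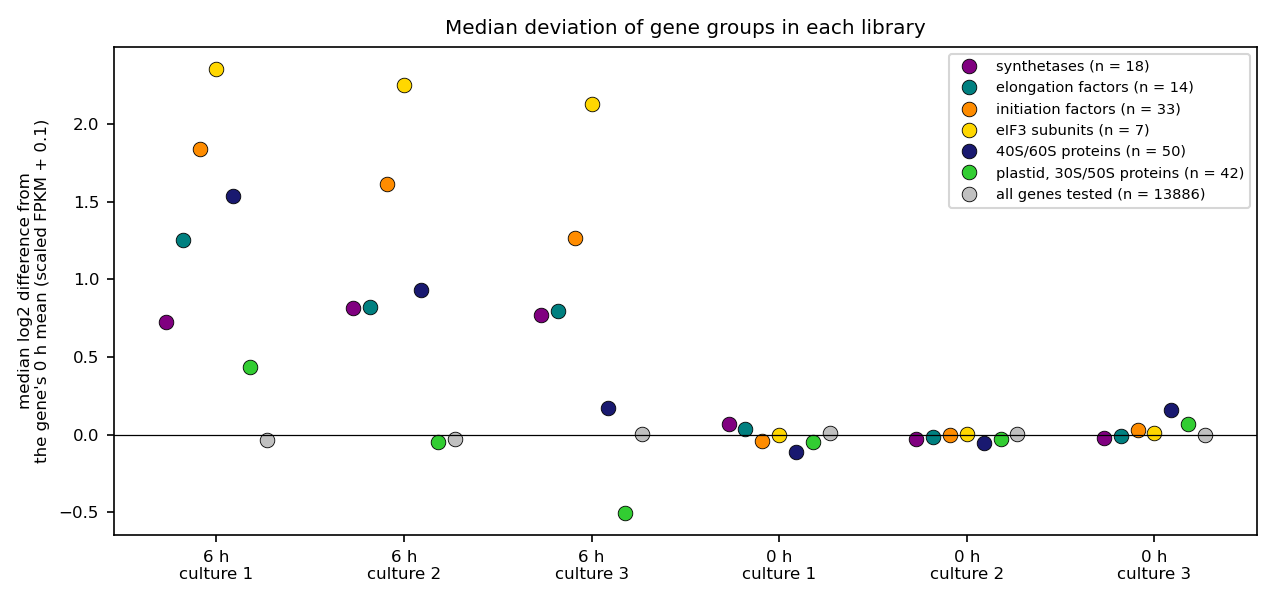
Median log2 difference of scaled FPKM + 0.1 from each gene's 0 h mean (vertical axis) in each of the 6 libraries, for the synthetases, the elongation factors, the initiation factors, the eIF3 subunits, ribosomal proteins and all genes tested. The medians of the eIF3 subunits are 2.35, 2.25 and 2.13 in the 6 h cultures, and those of the 40S/60S proteins, at 1.54, 0.93 and 0.17, differ far more between the same cultures.

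The genes of the ribosome itself, on which these factors act, had a smaller median change than the 65 genes, and it differed between ribosomes. Of 117 ribosomal protein genes in the section of the study's list for the ribosome, 21 were up-regulated (17.9%, where 20.0% of all genes tested were) and 2 down-regulated (1.71%, where 26.6% of all genes were), with a median log2 fold change of 0.68. The 50 genes named for the 40S or 60S subunit of the cytosol had a median of 0.89, with 10 up-regulated, the same share as over all genes, and 0 down-regulated. The 42 named for the plastid or for 30S and 50S subunits had a median of -0.04, with 3 up-regulated and 2 down-regulated, and 5 of the 8 mitochondrial ones were up-regulated, with a median of 1.24. All 50 of the 40S and 60S genes were highest in the first and lowest in the third 6 h culture. Over all 117 genes the number up-regulated was 59 without the third 6 h culture and between 11 and 19 when any other single library was left out. It was 8 without scaling, 7 as TPM and 9 with upper-quartile scaling, against 21 with the main scaling. For the 65 translation genes the number up-regulated stayed between 33 and 39 when any 1 library was left out.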

How the data were processed

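The authors extracted poly-A RNA and sequenced 1 library per replicate at each time. According to the methods, reads were aligned to the *C. zofingiensis* genome with TopHat and quantified with Cufflinks, while the submitters' processing notes name HISAT, Bowtie2 and RSEM; the sources used here do not give the genome build or the strand handling. The deposited values are FPKM by the authors, unscaled between libraries, with 2 decimals and hold only values above 0. Genes that a library does not list were set to 0. FPKM hold no counts, so the depth behind a value is unknown and precision is that of the 3 cultures. Between 14233 and 14697 genes were listed per library.

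Libraries were divided by median-of-ratios factors, 0.1 was added, and log2 values were tested in R 4.3.3 with limma 3.58.1 (linear model on time, moderated with a trend, two-sided, jsonlite 2.0.0 for reading the records). The test ran over the 13886 genes whose mean FPKM reached 1 at 6 h or 0 h, with Benjamini-Hochberg adjustment. The call limits follow the study's definition of a changed gene. Fold changes of low genes are understated by the 0.1 added. The fit was also run on simulated data in which both times had the spread of the 0 h libraries. The residual SD over all genes on the log2 scale was 0.54, 0.29 and 0.63 in the 6 h libraries, against 0.19, 0.17 and 0.20 at 0 h. The simulation therefore does not cover the wider spread at 6 h. Alternatives were 3 other scalings (none, TPM, and the 75th percentile of genes listed in any library), a pseudocount of 1 or of 0.01, a filter at 10 FPKM or none, a replicate block, weights for the libraries, no trend, other call rules and leaving out each library.

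The members and the list of ribosomal genes were chosen with earlier results of these data known. Values by library are given for the 3 largest and 2 smallest log2 fold changes of each class, every down-regulated gene, the most abundant gene of each class at 0 h and both genes of consecutively numbered pairs, and other genes are marked.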

Additional observations from a re-analysis of the deposited data

How the results depend on the processing

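The counts moved with the scaling and with the rule for a call. For the translation genes, the median log2 fold change was 0.81 without scaling, 0.68 with TPM and 0.81 with upper-quartile scaling. The number of synthetases called higher was 3 under each of these, and with TPM 5 translation genes were called lower. With the fold limit inside the test, 25 translation genes (3 of them synthetases) were higher and 1 was lower, and with no limit on the fold change 47 (11 of them synthetases) were higher and 6 were lower. With each library left out in turn, the counts were 33 to 39 genes higher, 2 to 4 lower, 5 to 6 synthetases, 5 to 8 elongation factors and 22 to 26 initiation factors higher, and the median was 1.06 to 1.25. The other pseudocounts and filters, library weights and a fit with no trend gave 35 or 36 genes higher and 3 lower.

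Fold changes turned sign in 14 cases, all without a call: Cz08g08090, Cz10g03140, Cz19g09140 and Cz12g12010 were at -0.16, -0.049, -0.15 and -0.16 without scaling, at -0.16, -0.050, -0.15 and -0.16 with upper-quartile scaling, and at -0.29, -0.18, -0.28 and -0.29 with TPM, and with a library left out Cz02g31260 was at -0.26 to 0.13 (above 0 without the first 6 h culture) and Cz11g18080 at -0.071 to 0.99 (below 0 without the third). Over all genes, 1384 were higher and 2417 lower with the limit inside the test, 4665 and 4696 with no limit, and 1624 and 4738 with TPM, against 2772 and 3692.

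Replicate numbers are shared by the times, and the main fit did not take them as pairs. Deviations of same-numbered libraries from the mean of their time correlated at -0.304, -0.111 and -0.489 across genes. Those of differently numbered libraries were between -0.189 and 0.454. With 3 libraries a time the deviations of a gene sum to 0 within each time, so these correlations depend on each other. Whether the libraries are paired was not tested. With a replicate block, 35 genes were higher, 3 were lower and the median was 1.12.

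With no counts deposited, counting error cannot be separated from the spread of the cultures, and with 3 cultures a time and wide 6 h spreads, genes near the fold limit have an uncertain call.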
